A study of Mus musculus with 8 samples.

Results

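Chemokines are small secreted proteins that direct the movement of leukocytes, and chemokine receptors are the G protein-coupled receptors through which cells sense them. The members described here are all genes of the array whose name is Ccl, Cxcl, Ccr or Cxcr followed by a number and at most 1 letter. This rule used names and no measured value, and it found 50 genes of the 36994 gene names on the array, with 69 probes. There were 34 ligands and 16 receptors. The tissue was tibialis anterior, a fast muscle at the front of the lower leg, taken from male C57BL/6J mice 14 weeks old. In 4 mice Porphyromonas gingivalis, an anaerobic bacterium of the gum pocket, had been given by mouth for 6 weeks from the age of 8 weeks, in 100 µL of saline through a feeding needle. The other 4 mice are labelled control, and the sources used here do not give the bacterial dose or say whether controls received saline. The protocol gives High-fat diet 32 for the mice without naming a group, so both groups are taken to have eaten it, and the group names it uses for the treated mice occur in no sample title. The question is whether oral P. gingivalis altered the expression of these genes in muscle.

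In the body, chemokines bind to sugars of vessel walls and matrix and form local gradients that lead leukocytes out of the blood and through tissue. ELR CXC ligands such as Cxcl1 draw neutrophils through Cxcr2, ligands of the Ccl2 type draw monocytes through Ccr2, and Ccl19, Ccl21a and Cxcl13 guide lymphocytes and dendritic cells through Ccr7 and Cxcr5. Cells of muscle, among them fibroblasts, endothelium, resident macrophages and the fibres themselves, are known to make chemokines after injury, and circulating monocytes then enter the tissue and help it to regenerate.

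Each array gave a Cy3 signal per probe, and all values below are log2 signals relative to the 75th percentile of the same array, so that 0 marks that percentile. A probe counted as well above background where the scanner software had set that mark for over 50% of its spots, and it was tested where this held on at least 4 of the 8 arrays. Before scaling, the 75th percentile was 238 to 255 on the P. gingivalis arrays and 275 to 306 on the control arrays, and 56.3% to 59.3% of spots were well above background. The P. gingivalis arrays occupied row 2 of 1 slide and the control arrays row 1, so row and treatment cannot be told apart. The 8 muscle fibre markers, Acta1 and Ckm among them, had log2 signals of 8.40 to 10.31 over the arrays, so the defining genes of the labelled tissue were present on each. Each sample is assumed to be 1 mouse, and otherwise p-values measure only the spread between samples.

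The groups of 4 arrays differ between the 2 kinds of deposited data. When each column of the deposited value table was correlated with each scanner file, every column had a single partner, with correlations of 0.833 to 0.88. Only 4 of the 8 columns had a partner from the group named in their own label. The results below use the labels of the scanner files. P. gingivalis 3, P. gingivalis 4, control 1 and control 2 are the arrays on which both sources give the same group. Values under the value table's groups are given beside many of the results below, and no source could be preferred from the labels or the files.

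Promoter sequence is shown for 3 neighbouring neutrophil chemokines, because Cxcl1 was measurable in this muscle while Cxcl2 and Cxcl3 were not. The 250 bases before each gene's annotated start are given on the plus strand, credited to RefSeq on build GRCm38.p6. Capitals mark matches of the NF-kB motif, searched on both strands as GGG, any 2 bases, TTTCC, and the matches do not overlap each other. The windows are chr5:90890995-90891244 for Cxcl1, chr5:90903649-90903898 for Cxcl2 and chr5:90785851-90786100 for Cxcl3.
Cxcl1: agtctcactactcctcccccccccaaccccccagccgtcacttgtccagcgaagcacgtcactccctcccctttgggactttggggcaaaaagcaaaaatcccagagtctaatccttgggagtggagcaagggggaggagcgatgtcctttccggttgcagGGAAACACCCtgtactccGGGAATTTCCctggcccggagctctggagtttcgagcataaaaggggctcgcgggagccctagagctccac
Cxcl2: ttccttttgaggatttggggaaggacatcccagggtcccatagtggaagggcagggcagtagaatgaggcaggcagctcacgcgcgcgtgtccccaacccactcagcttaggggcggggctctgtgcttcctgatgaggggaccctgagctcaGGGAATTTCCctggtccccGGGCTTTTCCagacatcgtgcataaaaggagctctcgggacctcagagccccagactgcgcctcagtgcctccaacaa
Cxcl3: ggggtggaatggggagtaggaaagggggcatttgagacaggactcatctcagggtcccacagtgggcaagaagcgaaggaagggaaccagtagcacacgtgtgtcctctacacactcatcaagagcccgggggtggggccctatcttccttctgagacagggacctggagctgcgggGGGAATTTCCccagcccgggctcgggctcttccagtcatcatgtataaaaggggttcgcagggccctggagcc
Cxcl1 and Cxcl2 each hold 2 matches, beginning 89 and 71 bases before the start of Cxcl1 and 97 and 78 bases before that of Cxcl2. Cxcl3 holds 1, beginning 73 bases before its start. Over windows of 250 bases before to 50 bases after the start, the motif occurs in 1.63% of 32851 promoters and in those of 6 of the 35 member genes that the table holds, the others being Ccl9, Ccl20 and Ccr3. A motif of interferon-response elements, TTTC, any 2 bases, TTTC, occurs in 3.44% of promoters and in those of Ccl19, Cxcl10 and Cxcl14, and the shorter TTC, any 3 bases, GAA in 8.3% and in those of Ccl17, Ccr6 and Cxcl14. These are matches of letters and not measured binding sites.

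Most members were either measurable in every mouse or in none. Of the 50 genes, 22 had a probe well above background on all 8 arrays, and 17 had none on any array. A further 6 reached it on 1 to 3 arrays, and 27 were tested. Among the 34 ligands 20 were tested, and among the 16 receptors 7. By array, 27, 27, 24 and 24 member genes were well above background in P. gingivalis muscle, against 29, 28, 26 and 29 in control muscle. Over all spots the shares well above background were 57.2%, 57.8%, 57% and 56.3% on the P. gingivalis arrays. On the control arrays they were 58.9%, 56.3%, 58.6% and 59.3%. The genes that reached that mark on no array were Ccl3, Ccl4, Ccl20, Ccl22, Ccl26, Cxcl2, Cxcl3, Cxcl5, Cxcl15 and Cxcl17 among the ligands, and Ccr1, Ccr4, Ccr6, Ccr10, Cxcr1, Cxcr2 and Cxcr5 among the receptors. For these no difference is given.

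**Figure D1:**
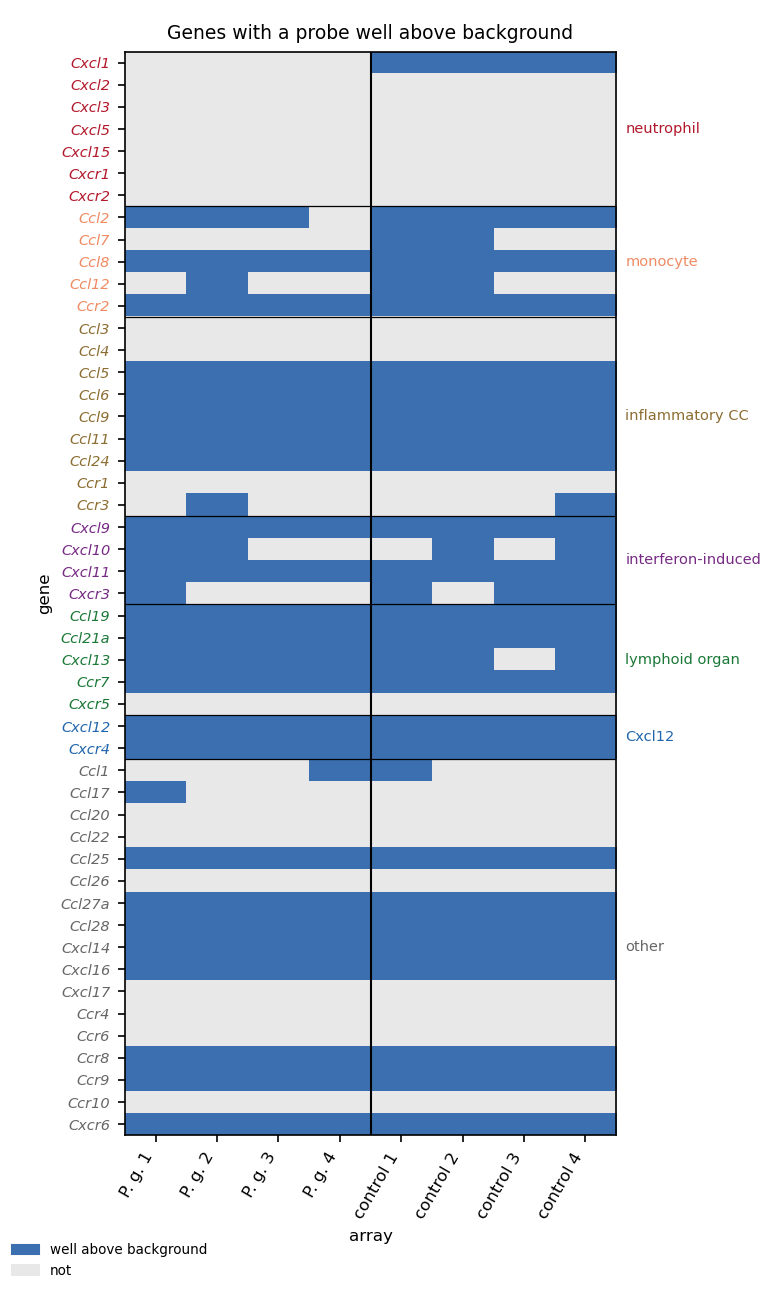
Member genes by role (rows) on the 8 arrays (columns, P. gingivalis left, control right), with blue where a probe of the gene was well above background. Cxcl1 is blue on the 4 control arrays and on no P. gingivalis array, and most other genes are blue on all 8 arrays or on none.

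No member passed the adjusted threshold of 0.05 (limma, Benjamini-Hochberg over all 31649 tested probes), as was true of every tested gene (0% called). Cxcl1 passed the filter through the control arrays alone, so its inclusion among the tested members already depended on the groups. It is counted in each number over the 27 tested members. An unadjusted limma p under 0.05 was found for 6 of the 27 tested members, where the share over all 21285 tested genes was 10.9%. Groups did not overlap for 2 of the 27, Cxcl1 and Ccl21a, where the share over all tested genes was 6.79%. A filter of all 8 arrays leaves Cxcl1 out. Of the 22 members passing it, 4 had an unadjusted limma p under 0.05 and 1 had groups without overlap. The shares over all genes passing it were 11.9% and 7.06%. Of the tested members 8 averaged higher and 19 lower in P. gingivalis muscle, with a median log2 difference of -0.072, while the median over all tested genes was -0.016 and 45.4% of them were higher. This split was 9 higher and 18 lower after quantile normalization. It was 15 higher and 12 lower after normexp background correction, where 59.9% of all tested genes were higher. With the same scaled values under the value table's groups it was 13 higher and 14 lower.

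**Figure D2:**
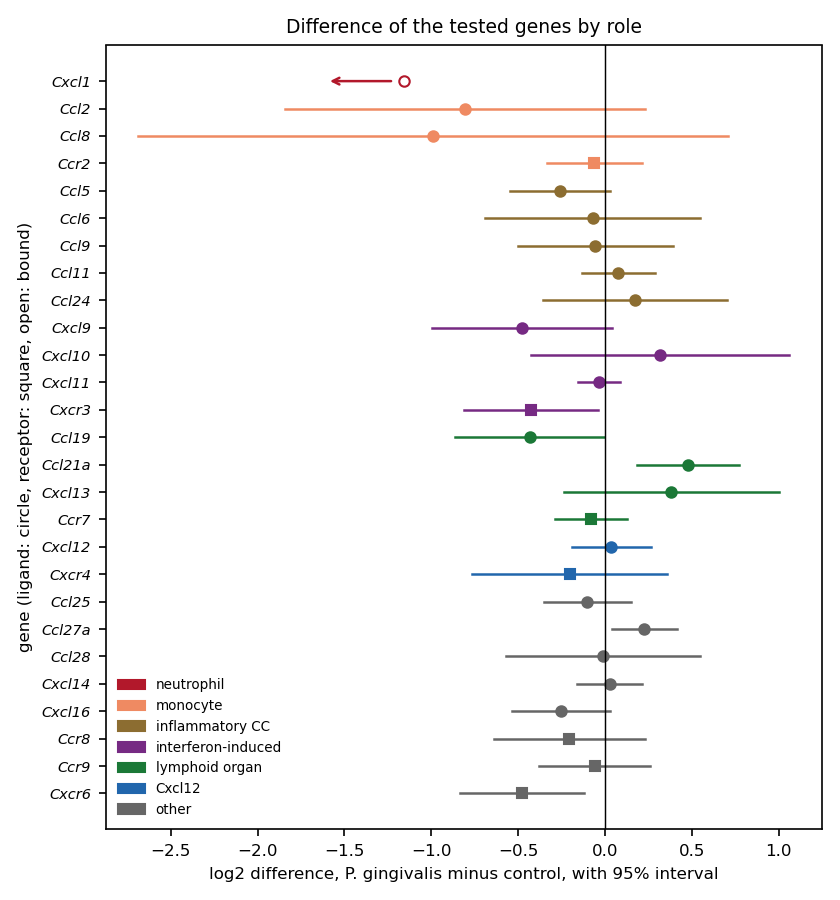
The log2 difference, P. gingivalis minus control, of the 27 tested genes, with 95% confidence intervals from limma, ordered and coloured by role (circles ligands, squares receptors). Cxcl1 is drawn as a bound with no interval (open circle with an arrow, at least 2.23-fold lower), and most intervals of the other genes include 0.

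Among the neutrophil chemokines, Cxcl1 was the only one of 5 ligands and 2 receptors well above background on any array. Cxcl1 is made by fibroblasts, endothelium and muscle cells and draws neutrophils through Cxcr2. Its log2 signals were -6.23, -5.20, -5.80 and -5.06 in P. gingivalis muscle, against -3.54, -3.32, -4.29 and -4.20 in control muscle. Every control array lay above every P. gingivalis array, and none of the P. gingivalis signals was well above background. A bound therefore replaces the fold, with the group not well above background set, per array, at the lowest signal that any probe well above background had there, or at its own signal where that was higher. On that bound Cxcl1 was at least 2.23-fold lower in P. gingivalis muscle. The measured means were -5.57 ± 0.54 in P. gingivalis and -3.84 ± 0.48 in control muscle (SD, n = 4 each). No p-value is given for them, because the probe passed the filter through the control arrays alone. The probe lies at chr5:91322080-91322139 (mm9).

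The measured mean of Cxcl1 was lower in P. gingivalis muscle in every alternative run, but the separation of the groups was not kept in all of them. After normexp correction, whose offset compresses dim signals, the groups overlapped and the means differed by -0.10 on the log2 scale. Under the value table's groups Cxcl1 was well above background on 2 P. gingivalis and 2 control arrays, so the bound does not hold there. The groups then overlapped and the means differed by -0.27, with an adjusted p of 1 by limma.

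Cxcr2, the receptor for Cxcl1, reached no signal well above background and was not tested. Its signals were -7.30, -7.42, -7.28 and -7.24 in P. gingivalis muscle, against -5.53, -6.13, -5.54 and -6.89 in control muscle. The arrays separate by group there, but at signals that the software did not set apart from background, so no size is given. The value table's groups overlapped for Cxcr2. Cxcr2 was chosen after its values were seen, as were Ccl7, Ccl8, Ccl12, Cxcl10 and Cxcl11 below.

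Beside Cxcl1 the neutrophil markers S100a8 and S100a9 averaged lower by a wide margin, while the others on their list differed little. Of 11 on the list, 8 were tested, with 1 higher and 7 lower in P. gingivalis muscle and none past the adjusted threshold. The log2 differences were -3.42 for S100a8 and -2.93 for S100a9 (adjusted p = 0.329 for both by limma), against -0.32 for Mmp8, -0.15 for Csf3r, -0.14 for Mpo, -0.10 for Ly6g and -0.036 for Camp. S100a8, a calcium-binding protein that fills the neutrophil cytosol, had log2 signals of -4.10, -4.13, -5.54 and -6.89 in P. gingivalis muscle, against -1.21, -1.11, -4.45 and -0.21 in control muscle. It was well above background on 2 P. gingivalis and 4 control arrays, so dim signals limit the size of its difference. S100a9, its partner, had -2.88, -2.31, -2.74 and -3.92 in P. gingivalis muscle, against 0.65, 0.67, -2.64 and 1.202 in control muscle. For both genes control 3 lay within the span of the P. gingivalis arrays, while its Cxcl1 signal was well above background. S100a8 differed by -1.64 and S100a9 by -1.06 under the value table's groups. The list's summed level, as a mean of centred log2 signals, ran from -0.76 to -0.21 in P. gingivalis and from -0.29 to 0.76 in control muscle. The granule genes Ngp and Ltf were well above background on no array, Retnlg on controls 1 and 2 alone, and Elane, another granule gene, was higher on every P. gingivalis array than on any control array (log2 difference 0.36, adjusted p = 0.323 by limma). Elane differed by 0.044 under the value table's groups, which overlapped. The part of neutrophil content in the Cxcl1 difference was not tested. In whole muscle, fewer cells of a type and less RNA per cell cannot be told apart.

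**Figure D3:**
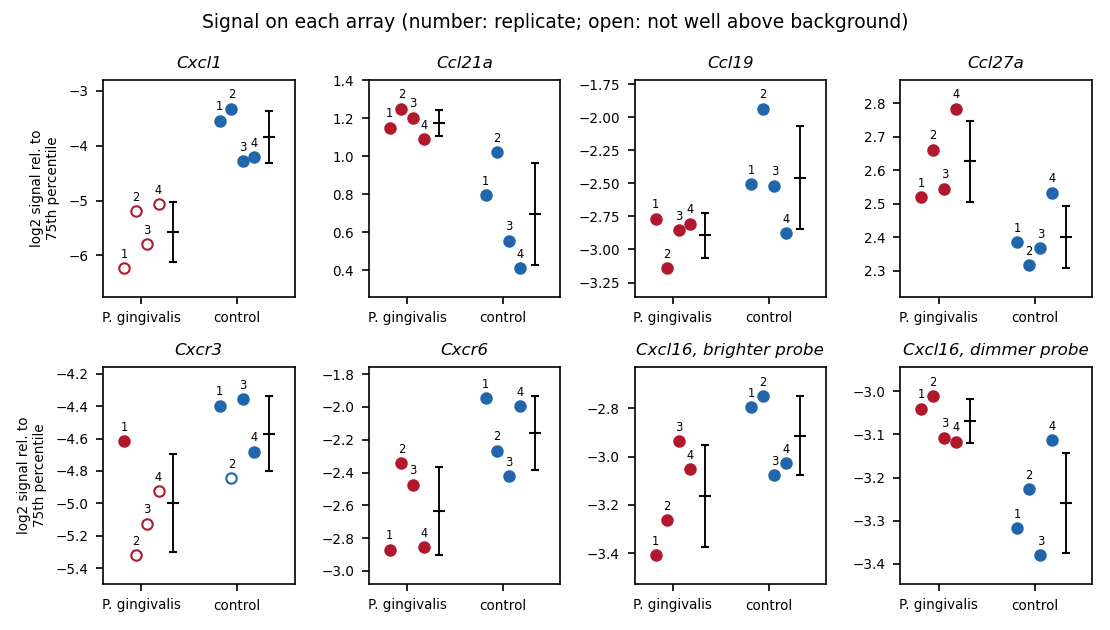
Log2 signal of each array relative to its 75th percentile for Cxcl1, Ccl21a, Ccl19, Ccl27a, Cxcr3, Cxcr6 and the 2 probes of Cxcl16 (P. gingivalis red, control blue, numbers for replicates, open circles not well above background), with mean and SD beside each group. The groups separate for Cxcl1 and Ccl21a and overlap in the other 6 panels.

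The monocyte ligands were patchy among the control mice. Ccl2, the chief monocyte attractant, had log2 signals of -3.79, -4.11, -3.79 and -5.52 in P. gingivalis muscle, against -3.04, -2.84, -3.89 and -4.22 in control muscle. The groups overlapped, because controls 3 and 4 lay below P. gingivalis 1 and 3. The log2 difference was -0.80 ± 0.45 (SE, adjusted p = 0.532 by limma), and it was -0.40 without P. gingivalis 4, the lowest array, -1.05 without control 4 and -0.058 after normexp.

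Ccl8, another ligand for monocytes, had signals of -2.02, -2.18, -2.36 and -2.24 in P. gingivalis muscle, against -1.33, 1.26, -2.13 and -2.65 in control muscle. Control 2 stood far above every other array, and controls 3 and 4 lay within or below the span of the P. gingivalis arrays. The log2 difference of -0.99 ± 0.74 (SE, adjusted p = 0.635 by limma) became -0.17 when control 2 was left out.

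Ccl7 and Ccl12, which share Ccr2 as receptor with Ccl2, were not tested. Ccl7 had -7.05, -7.13, -7.01 and -7.00 in P. gingivalis muscle, against -4.13, -3.82, -5.44 and -6.64 in control muscle, and only controls 1 and 2 were well above background. Ccl12 had -5.43, -4.65, -4.93 and -7.05 in P. gingivalis muscle, against -4.21, -2.93, -6.07 and -5.76 in control muscle, and P. gingivalis 2 and controls 1 and 2 were well above background. So controls 1 and 2 were the highest arrays for each of Ccl2, Ccl7, Ccl8 and Ccl12. The probes of these 4 genes lie between 81850650 and 81930167 on chromosome 11 (mm9). Ccr2, the receptor that inflammatory monocytes carry, showed no such pattern, with -3.76 ± 0.22 in P. gingivalis and -3.70 ± 0.13 in control muscle (SD, n = 4 each), and its sign turned to 0.14 after normexp.

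Both sources of labels place controls 1 and 2 in the control group. Under the value table's groups the log2 difference was -0.91 for Ccl2 (adjusted p = 1 by limma), and -1.28 for Ccl8 (adjusted p = 1 by limma). Ccl7 was then well above background on 0 arrays of the P. gingivalis group and 2 of the control group, and Ccl12 on 0 and 3. On the 4 arrays with the same group in both sources, Ccl2 differed by -1.72 and Ccl8 by -2.27 (adjusted p = 0.54 and 0.551 by limma).

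**Figure D4:**
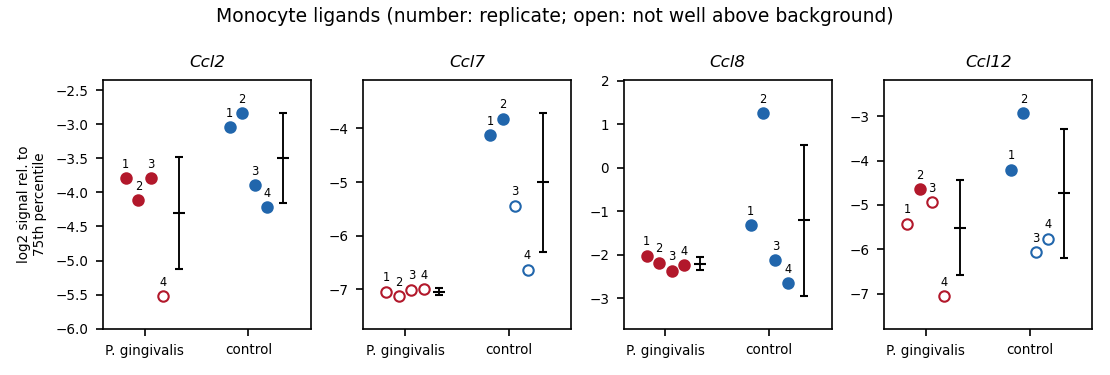
Log2 signal of each array relative to its 75th percentile for the monocyte ligands Ccl2, Ccl7, Ccl8 and Ccl12 (P. gingivalis red, control blue, numbers for replicates, open circles not well above background), with mean and SD beside each group. Controls 1 and 2 are the top arrays in all 4 panels, and controls 3 and 4 lie near the P. gingivalis arrays for Ccl2 and Ccl8.

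Macrophage and monocyte markers showed another order of the arrays. All 9 were tested, with 7 higher and 2 lower in P. gingivalis muscle, and the list's level ran from -0.074 to 0.40 in P. gingivalis and from -0.37 to 0.041 in control muscle. The sign turned under the value table's groups for Cd68 (-0.077), Mrc1 (-0.088) and C1qa (-0.133), and the other markers of the list kept theirs. Control 1 had the lowest level on the list, although it was among the 2 highest arrays for the monocyte ligands. Their part in the ligands' values was not tested.

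The ligands of Ccr1 and Ccr3 were mostly steady. Ccl5, Ccl6, Ccl9, Ccl11 and Ccl24 were well above background on all 8 arrays, with log2 differences from -0.26 to 0.18 and unadjusted limma p from 0.072 upwards. Ccl5, a ligand for T cells and monocytes, had signals of -3.38, -3.65, -3.45 and -3.11 in P. gingivalis muscle, against -3.28, -3.26, -3.03 and -3.00 in control muscle. The groups overlapped, and the difference of -0.26 ± 0.13 (SE, adjusted p = 0.477 by limma) was 0.029 after normexp and 0.25 under the value table's groups. Ccl11, or eotaxin, which draws eosinophils through Ccr3, averaged 2.22 ± 0.11 in P. gingivalis and 2.14 ± 0.14 in control muscle (SD, n = 4 each). Ccl24, a second eotaxin, averaged -0.98 ± 0.28 in P. gingivalis and -1.15 ± 0.45 in control muscle (SD, n = 4 each). Ccl6 and Ccl9, mouse ligands of Ccr1, differed by -0.072 and -0.056. The receptors were hardly measurable, since Ccr1 was well above background on no array and Ccr3 on P. gingivalis 2 and control 4 alone.

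Of the interferon-induced ligands and their shared receptor Cxcr3, all 4 genes were tested, with 1 higher and 3 lower in P. gingivalis muscle. Cxcr3, carried by activated T cells and natural killer cells, had signals of -4.62, -5.32, -5.13 and -4.92 in P. gingivalis muscle, against -4.40, -4.84, -4.36 and -4.68 in control muscle. It was well above background on 1 P. gingivalis and 3 control arrays, P. gingivalis 1 lay among the controls, and the difference was -0.43 ± 0.17 (SE, adjusted p = 0.42 by limma). Its sign turned to 0.13 after normexp and to 0.023 under the value table's groups. Cxcl9, which is induced by interferon gamma, had -3.58, -3.72, -3.19 and -3.25 in P. gingivalis muscle, against -3.10, -2.47, -3.51 and -2.76 in control muscle. Control 3 fell among the P. gingivalis arrays, and the difference was -0.48 ± 0.23 (SE, adjusted p = 0.471 by limma), and it was 0.041 under the value table's groups. Without control 3 it was -0.66.

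Cxcl10, induced by type I and type II interferons, was well above background on 2 arrays of each group, and its mean was -4.81 ± 0.50 in P. gingivalis and -5.12 ± 0.57 in control muscle (SD, n = 4 each). Cxcl11 differed by -0.036 on its brighter probe, with signals of 7.80, 7.80, 7.81 and 7.79 in P. gingivalis muscle, against 7.87, 7.78, 7.83 and 7.86 in control muscle. The 8 arrays were nearly level. A run of 20 of the probe's bases, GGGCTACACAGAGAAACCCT, is a stretch of the B1 repeats of rodents and also occurs in 15 promoters of the RefSeq table. The probe shares 20-base runs with 6 other probes of the array and with 22 promoters, and how much of its signal comes from Cxcl11 was not tested. The other Cxcl11 probe, at chr5:92788640-92788699 (mm9), shares none with the array or the promoters and averaged 1.70 ± 0.06 in P. gingivalis and 1.75 ± 0.05 in control muscle (SD, n = 4 each).

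Among the lymphoid organ chemokines the ligands went both ways. Ccl21a, a ligand of Ccr7, had log2 signals of 1.15, 1.25, 1.202 and 1.09 in P. gingivalis muscle, against 0.79, 1.02, 0.56 and 0.41 in control muscle. Every P. gingivalis array lay above every control array, and control 2 came close to P. gingivalis 4. The fold was 1.39 (95% confidence interval 1.14 to 1.71), with an unadjusted p of 0.00518 and an adjusted p of 0.323 by limma. The exact permutation p was 0.0286, two-sided, the smallest that 70 assignments of 8 arrays allow. The sign turned to -0.24 under the value table's groups, and the difference was 0.24 on the 4 arrays with the same group in both sources. The probe lies at chr4:42231835-42231894 (mm9), and mice have near-identical copies of this gene that it may read as well.

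Ccl19, the other ligand of Ccr7, had signals of -2.77, -3.14, -2.85 and -2.81 in P. gingivalis muscle, against -2.50, -1.94, -2.52 and -2.88 in control muscle. Control 4 lay below 3 of the P. gingivalis arrays, and the difference was -0.43 ± 0.19 (SE, unadjusted p = 0.0474, adjusted p = 0.443 by limma). It was -0.26 without control 2, the highest array, -0.18 under the value table's groups and -0.11 after normexp. Cxcl13, which organises B cell follicles, differed by 0.38 ± 0.27 (SE, adjusted p = 0.616 by limma) and was well above background on 4 P. gingivalis and 3 control arrays. Its sign turned to -0.27 under the value table's groups. Ccr7 averaged -2.82 ± 0.09 in P. gingivalis and -2.74 ± 0.15 in control muscle (SD, n = 4 each), and Cxcr5, the receptor for Cxcl13, was well above background on none.

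Lymphatic endothelial markers stood beside Ccl21a as follows. Of 4 tested, Lyve1 and Flt4 averaged higher in P. gingivalis muscle and Prox1 and Pdpn lower, and the list's level ran from 0.10 to 0.30 in P. gingivalis and from -0.60 to 0.087 in control muscle. Lyve1, which tissue macrophages also carry, differed by 0.76 and Flt4 by 0.90, while Prox1, the defining lymphatic factor, differed by -0.14. Flt4 was well above background on 3 P. gingivalis and 2 control arrays, and it differed by 0.36 without control 2, its lowest array. Lyve1 differed by -0.13 and Flt4 by 0.82 under the value table's groups. Their part in the Ccl21a difference was not tested. Of the T cell markers 3 of 6 were tested, with 1 higher and 2 lower, and of the B cell markers 3 of 5, with 2 higher and 1 lower.

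Cxcl12, the stromal ligand that holds stem cells and lymphocytes in place, and its receptor Cxcr4 were well above background on all 8 arrays and hardly differed. Cxcl12 averaged 3.40 ± 0.16 in P. gingivalis and 3.37 ± 0.12 in control muscle (SD, n = 4 each), with a 95% confidence interval of the log2 difference from -0.19 to 0.26. Cxcr4 averaged -3.79 ± 0.24 in P. gingivalis and -3.59 ± 0.51 in control muscle (SD, n = 4 each), with an interval from -0.77 to 0.36. The sign of either difference turned in some alternatives. Under the value table's groups Cxcl12 differed by 0.22 without overlap (unadjusted p = 0.012, adjusted p = 1 by limma).

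The remaining ligands and receptors serve mainly lymphocytes of skin and gut, and 8 of these 17 genes were tested. Ccl27a, known from skin as a T cell attractant, had signals on its brightest probe of 2.52, 2.66, 2.54 and 2.78 in P. gingivalis muscle, against 2.39, 2.32, 2.37 and 2.53 in control muscle. Control 4 lay just above P. gingivalis 1, and the fold was 1.17 (95% confidence interval 1.03 to 1.33, adjusted p = 0.392 by limma). A second probe of Ccl27a differed by 0.17 (adjusted p = 0.426 by limma) and the dimmest by 0.025, and a near-identical gene copy may be read by these probes. The dimmest shares a 20-base run with 1 other probe of the array.

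Cxcr6, carried by resident T cells and natural killer T cells, had signals of -2.87, -2.34, -2.47 and -2.86 in P. gingivalis muscle, against -1.95, -2.27, -2.42 and -1.99 in control muscle. P. gingivalis 2 lay above control 3, and the difference was -0.48 ± 0.16 (SE, unadjusted p = 0.0151, adjusted p = 0.367 by limma). Its second probe differed by -0.50 ± 0.31 (SE, adjusted p = 0.564 by limma). The difference was -0.10 after normexp and -0.080 under the value table's groups. Cxcl16, the ligand of Cxcr6, was read by 2 probes that disagreed. The brighter differed by -0.25 ± 0.12 (SE, unadjusted p = 0.0749, adjusted p = 0.483 by limma) and the dimmer by 0.19 ± 0.073 (SE, unadjusted p = 0.0303, adjusted p = 0.411 by limma), and the groups overlapped on both. In all, 8 members had more than 1 tested probe, and in 4 of them the probes differed in sign.

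The other tested members of this class lay close to their controls. The log2 differences on the brightest probe were -0.10 for Ccl25, -0.012 for Ccl28, 0.027 for Cxcl14, -0.21 for Ccr8 and -0.059 for Ccr9, and limma gave adjusted p from 0.698 upwards. Under the value table's groups Ccl28 differed by -0.53 without overlap (unadjusted p = 0.00964, adjusted p = 1 by limma). Cxcl14 averaged 4.31 ± 0.13 in P. gingivalis and 4.28 ± 0.08 in control muscle (SD, n = 4 each), with a 95% confidence interval of the difference from -0.16 to 0.21. Ccl1 was well above background on P. gingivalis 4 and control 1, and Ccl17, a ligand of Ccr4, on P. gingivalis 1.

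By kind, all 7 tested receptors averaged lower in P. gingivalis muscle, with differences from -0.48 to -0.059, while 45.4% of all tested genes averaged higher. An unadjusted limma p under 0.05 was found for 2 of the receptors, where the share over all tested genes was 10.9%. After normexp 2 of the 7 receptors averaged lower, while 59.9% of all tested genes averaged higher. Under the value table's groups 3 of the 7 averaged lower, while 45.1% of all tested genes averaged higher. Of the 20 tested ligands, 8 averaged higher and 12 lower.

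**Figure D5:**
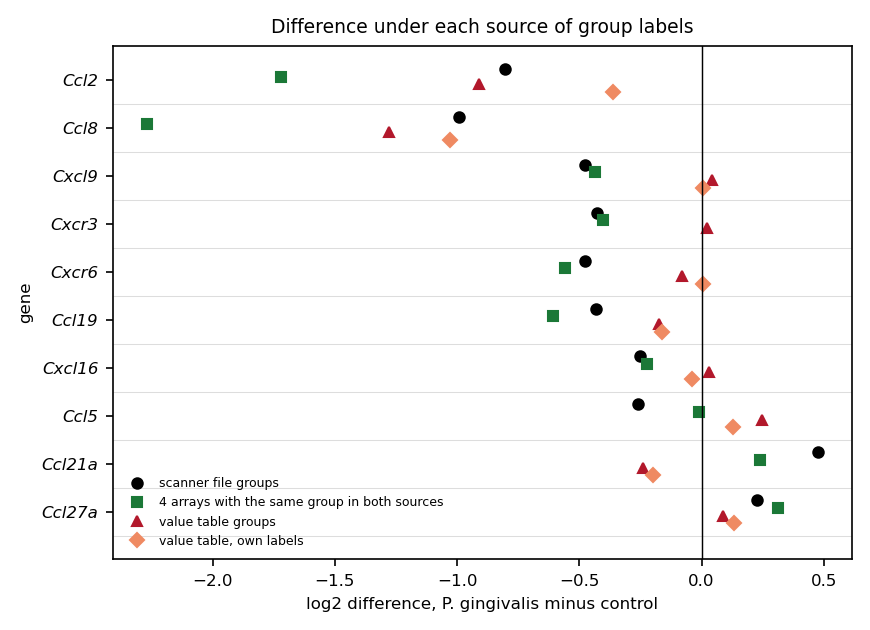
The log2 difference, P. gingivalis minus control, of 10 members under 4 choices of group labels (black circles scanner files, green squares the 4 arrays with the same group in both sources, red triangles scanner signals with the groups of the value table, orange diamonds the value table with its own labels). Ccl2 and Ccl8 lie below 0 under every choice, but every choice keeps controls 1 and 2, their highest arrays, in the control group. Ccl21a lies above 0 with the scanner file labels and on the 4 arrays but below 0 under the value table's groups.

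Further genes of the chemokine system were read from a list of 47 that the name rule does not cover. Of these 39 were tested, with 18 higher and 21 lower in P. gingivalis muscle, 7 with an unadjusted limma p under 0.05 and none past the adjusted threshold (lowest adjusted p 0.309). Over all tested genes, 10.9% had an unadjusted limma p under 0.05 and 6.79% had groups that did not overlap. Cx3cr1, the fractalkine receptor of patrolling monocytes and macrophages, had signals of -4.82, -4.43, -5.47 and -4.27 in P. gingivalis muscle, against -3.76, -3.98, -3.70 and -3.63 in control muscle. The groups did not overlap (difference -0.98, unadjusted p = 0.00321, adjusted p = 0.323 by limma), and 2 of the P. gingivalis signals were not well above background. Cx3cr1 differed by -0.024 under the value table's groups, with an unadjusted limma p of 0.956. Cx3cl1, its ligand on endothelium, differed by -0.50 (adjusted p = 0.45 by limma) and Ppbp, a platelet chemokine for Cxcr2, by -0.72 (adjusted p = 0.372 by limma), and the groups overlapped for both. The sign turned for both under the value table's groups, to 0.19 for Cx3cl1 and 0.38 for Ppbp. All 4 endothelial markers also averaged lower in P. gingivalis muscle, Kdr by -0.59 without overlap (adjusted p = 0.323 by limma). The others hardly differed, Pecam1 by -0.042, Cdh5 by -0.052 and Tek by -0.011. Under the value table's groups all 4 averaged higher, Kdr by 0.18, Pecam1 by 0.20, Cdh5 by 0.24 and Tek by 0.15. The list's level ran from -0.20 to 0.087 in P. gingivalis and from -0.016 to 0.37 in control muscle. The part of these markers in the Cx3cl1 difference was not tested. All 5 atypical receptors were tested, none had an unadjusted p under 0.05, and Ackr3, which takes up Cxcl12, differed by -0.048 and, under the value table's groups, by 0.23.

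Of the proteins that act on chemokines, Dpp4, which trims the ends of several of them, had signals of -2.26, -2.24, -2.22 and -2.46 in P. gingivalis muscle, against -3.00, -3.09, -2.64 and -2.78 in control muscle. The matrix metalloprotease Mmp2, which also cleaves some of them, had 1.54, 1.39, 1.24 and 1.33 in P. gingivalis muscle, against 0.82, 0.39, 0.96 and 0.91 in control muscle. Both were higher on every P. gingivalis array than on any control array, by 0.58 and 0.61 on average (adjusted p = 0.309 and 0.319 by limma). They differed by 0.13 and 0.076 under the value table's groups, which overlapped. All 5 fibroblast markers averaged higher in P. gingivalis muscle as well, the list's level running from 0.077 to 0.43 in P. gingivalis and from -0.69 to 0.080 in control muscle, and their part in the Mmp2 difference was not tested. Of 16 signalling genes 14 were tested, with 7 higher and 7 lower, and Grk5, a kinase that silences active receptors, differed by -0.32 without overlap (adjusted p = 0.323 by limma) and by 0.092 under the value table's groups.

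The inducers of chemokines were low or even between the groups. Il1a, Il1b, Il17a and Ifng reached no signal well above background. Tnf differed by -0.083 and Il6 by -0.28 (adjusted p = 0.85 and 0.653 by limma). Rela, a subunit of NF-kB, differed by -0.15, and Nfkbia, its inhibitor and target, by 0.26 (adjusted p = 0.499 and 0.553 by limma). Irf1, an interferon-induced factor, had signals of 0.71, 0.94, 0.88 and 0.82 in P. gingivalis muscle, against 1.16, 1.41, 0.84 and 1.11 in control muscle, and control 3 fell among the P. gingivalis arrays (adjusted p = 0.429 by limma). The receptors for bacterial products Tlr2 and Tlr4 differed by 0.034 and -0.10. Tnf differed by 0.37 without overlap under the value table's groups (unadjusted p = 0.00113, adjusted p = 1 by limma).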

How the data were processed

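Spot intensity values were deposited by the authors as scanner files of Agilent Feature Extraction (11.0.1.1 in the file headers, 11.1 in the submitters' processing notes). Per the file headers, processed intensity was corrected for background and spatial trend inside each array and not scaled across arrays. A table of log2 values, 24764 probes with 28 of members, was deposited too, and how the authors scaled it is not stated in the sources used here. Its column medians were 7.357 to 7.374, and it served as an alternative. Labelling started from 200 ng of RNA, per the labels' protocols.

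Here log2 was taken of the processed intensity, the array's 75th percentile (59305 non-control spots) was subtracted, and spots of a probe were averaged. Outlier spots (0.108% to 0.218%) were left out and no spot was saturated. Of 56605 probes, 31649 were tested with limma 3.58.1 in R 4.3.3 (lmFit, eBayes, no covariate, Benjamini-Hochberg over all tested probes). A gene was represented by its brightest tested probe. Probe coordinates are those of the files (mm9). RefSeq accessions matched 62 member probes directly, 2 matched by another accession and 5 by symbol. Array number limits precision.

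Members, lists and tests were chosen with earlier results of these data known. Named were tested members with an unadjusted p under 0.05 or groups that do not overlap, those well above background on all 4 arrays of a group and at most 1 of the other, and in each of 7 role classes the ligand and receptor of lowest p. The values of 1 member counted here are not reported. Others are named with counts, or where the text says so. Alternatives were normexp (offset 50), quantile normalization, no or a stricter filter, a variance trend, the mean over probes, the replicate number as a block, each array left out, and the labels and values of the value table. The fit was tested on simulated data. Figures used matplotlib 3.10.9.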

Additional observations from a re-analysis of the deposited data

How the results depend on the processing

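Over 18 alternative settings 0 member genes passed the adjusted threshold, and of 300 combinations of a named gene and a setting 273 kept the direction and 27 turned it. Of all genes, 6 passed the adjusted threshold after normexp, 2 with no filter and 2 with a variance trend. The 6 genes with an unadjusted p under 0.05 (10.9% of all genes) became 3 in the value table under its own labels (3.52%) and 2 under the value table's groups (3.75%), and 0 of the 3 and 0 of the 2 were among the 6. They became 6 after normexp (27.8% of all genes), with 3 shared and 0 lower, and 9 with no filter (8.12%). With 1 array left out they were 3 to 6 (8.62% to 12.2% of all genes), where 3 was without P. gingivalis replicate 2. The 2 genes without overlap (6.79% of all genes) became 4 after normexp (17%), of which 1 was among the 2 and Cxcl1 was not, 4 with no filter (5.41%), 1 with a filter of all 8 arrays (7.06%) and 17 on the 4 arrays of agreed group (43.7%), which are 2 against 2. With 1 array left out they were 2 to 4 (9.87% to 13% of all genes), the 4 being without P. gingivalis replicate 1, control replicate 3 or control replicate 4. The median difference was -0.206 on the 4 arrays of agreed group. No replicate numbers paired the arrays, as same-numbered arrays correlated at 0.0069 to 0.0629 in their deviations, and with the replicate block 6 members had an unadjusted p under 0.05 and 0 passed adjustment.

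The direction turned after normexp for Ccl5 (0.0292), Ccr2 (0.145), Ccr7 (0.108), Cxcl12 (-0.0272), Cxcl16 (0.0157), Cxcr3 (0.125) and Cxcr4 (0.0709). In the value table under its own labels it turned for Ccl21a (-0.197), Ccl5 (0.127), Ccr7 (0.0462), Cxcl9 (0.0058), Cxcr4 (0.116) and Cxcr6 (0.00584). Under the value table's groups it turned for Ccl21a (-0.238), Ccl5 (0.246), Ccr7 (0.0201), Cxcl10 (-0.524), Cxcl11 (0.00891), Cxcl16 (0.0307), Cxcl9 (0.0414), Cxcr3 (0.0234) and Cxcr4 (0.297). On the arrays of agreed group it turned for Cxcl10 (-0.206) and Cxcr4 (0.0934). With 1 array left out, Ccr2 ran from -0.146 to 0.00479, above 0 without P. gingivalis replicate 3, and Cxcl12 from -0.0254 to 0.0895, below 0 without P. gingivalis replicate 4 or control replicate 1 (-0.0114). In an alternative chosen after seeing the data, the value table's groups also turned Cxcl13 (-0.271), Ccr9 (0.0692), Ackr3 (0.228), Cx3cl1 (0.192), Grk5 (0.0915), Nfkbia (-0.0102), Ppbp (0.375) and Tnf (0.366). Among the endothelial and lymphatic markers they turned Kdr (0.176), Pecam1 (0.201), Cdh5 (0.239), Tek (0.151), Lyve1 (-0.126) and Prox1 (0.139). Leaving out each array for the marker and related genes was chosen then too. The causes were not tested. Dim signals limit Cxcl1, Cxcr3, Cxcl10, the marker S100a8 and the untested members.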
